A study of Mus musculus with 4 samples.

Results

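The peaks that NAT10 eCLIP placed on 4 mitochondrial mRNAs of respiratory complex I, mt-Nd1, mt-Nd2, mt-Nd4 and mt-Nd5, were described in mouse 32D cells. All listed peaks under these 4 gene symbols were taken, which gave 38 of the 4172 distinct peaks in the deposited list and 4 of its 1629 gene identifiers. The members were chosen by having listed peaks, with the authors' folds known, so their peaks, folds and p values are given as a description, with no test. In eCLIP, ultraviolet light joins a protein to the RNA it touches, the protein is recovered with an antibody, and the RNA pieces bound to it are read by sequencing. The tested libraries were 2 immunoprecipitates made with a NAT10 antibody, and they were set against 2 input libraries made without an antibody. All 4 libraries were of genotype WT and came from the bone marrow line 32D. The cells were kept in medium with 10 ng/mL mouse interleukin-3 and crosslinked with 150 mJ at 254 nm. Separate cultures for the replicates are not stated, and the line gives no account of primary stem cells. The authors summarised the libraries in 1 list, so no value per library and no spread between replicates stands behind any number below.

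Complex I takes electrons from NADH, passes them to ubiquinone and pumps protons across the inner mitochondrial membrane. Most of its subunits are encoded in the nucleus and imported, while the core of its membrane arm is encoded in mitochondrial DNA, transcribed as long polycistronic RNA and cut into mRNAs, largely at the tRNAs between them. Most mitochondrial mRNAs in mammals have short untranslated regions or none. NAT10 acetylates cytidine in RNA to N4-acetylcytidine and is best known as a nucleolar enzyme that modifies 18S rRNA and tRNA.

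All 38 peaks lay on the plus strand of the mitochondrial genome (GRCm39, MT) and in the authors' exon class. There were 7 on mt-Nd1, 9 on mt-Nd2, 7 on mt-Nd4 and 15 on mt-Nd5. Together they covered 1758 nt, which is 33.8% of the 5197 nt that these genes span in the RefSeq table. The width of single peaks ran from 8 to 108 nt, with 39 nt as the median. Most were pieces of longer bound stretches: of 34 neighbouring pairs on the same mRNA, 24 touched (70.6%). On mt-Co1 and mt-Cytb, the other mitochondrial mRNAs with listed peaks, 16 of 21 neighbouring pairs touched (76.2%). Of 777 neighbouring pairs of nuclear exon peaks, 212 did (27.3%). The high share of touching pairs was thus not particular to the complex I mRNAs. Joining the touching pieces among the 38 peaks left 14 regions, and joining pieces at most 50 nt apart left 9.

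**Figure D1:**
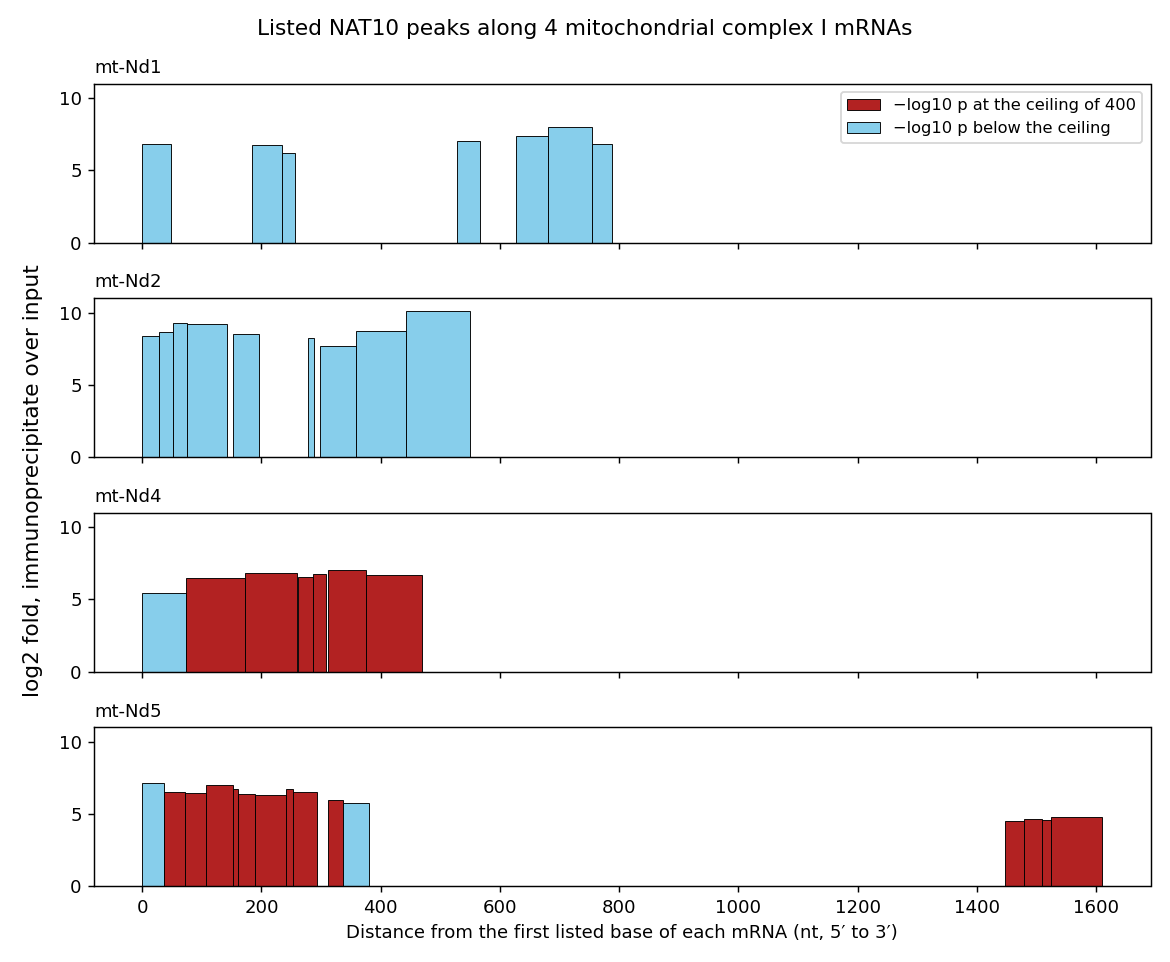
Each bar is a listed peak of mt-Nd1, mt-Nd2, mt-Nd4 or mt-Nd5; its width is the peak's width and its height the authors' log2 fold of immunoprecipitate over input, against the distance in nt from the first listed base of that mRNA. Bars in red are at the -log10 p ceiling of 400 and occur on mt-Nd4 and mt-Nd5, and mt-Nd5 has 2 groups of peaks 1066 nt apart.

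The mRNAs differed in where their peaks lay. The position of the peaks within each gene was bounded from gene lengths and from the genes between neighbouring listed peaks. No annotation of the files' build was used here, and transcript ends beyond the gene lengths were not mapped. Mitochondrial genes were allowed to overlap by up to 10 nt in these bounds.

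On mt-Nd1, which encodes the subunit beside the ubiquinone channel, the peaks were scattered along most of the mRNA. They ran from position 2865 to 3652, a span of 788 nt or 82.3% of the 957 nt gene, but covered 319 nt of it. The 4 separate regions were 48, 72, 38 and 161 nt long, with gaps of 137, 271 and 61 nt between them. The first listed base had at most 169 nt of the gene before it. The longest region, at 3492 to 3652, held the 2 strongest peaks, with log2 folds of 8.00 (3546 to 3619) and 7.37 (3492 to 3545). The other 5 peaks had log2 folds between 6.22 and 7.00. Fold on mt-Nd1 was thus highest in the region nearest to the 3′ end.

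On mt-Nd2, an antiporter-like subunit of the proton-pumping arm, the peaks lay in the middle and the 3′ part. They ran from 4240 to 4789, 550 nt or 53.0% of the 1038 nt gene, and filled 81.3% of that span. At least 210 and at most 388 nt of the gene preceded the first listed base, and between 100 and 278 nt followed the last. The peaks formed 4 regions of 142, 43, 11 and 251 nt. The region at 4240 to 4381 had log2 folds from 8.41 to 9.30, highest in the third piece, at 4292 to 4314. In the region at 4539 to 4789 the log2 fold stood at 7.68, 8.75 and 10.12 in its 3 pieces from 5′ to 3′. The last piece, at 4682 to 4789, was the widest of the 38 peaks (108 nt) and had the highest fold among them, 1110-fold on the linear scale. The lowest mt-Nd2 peak, 7.68, lay next to the region's 5′ edge and was still above 6 of the 7 mt-Nd1 peaks.

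On mt-Nd4, another antiporter-like subunit, the peaks formed 1 nearly unbroken block towards the 3′ end. They ran from 11031 to 11500 and covered 466 of those 470 nt, with 2 gaps of 2 nt each. The block took up 34.1% of the 1378 nt gene. At least 738 nt of the gene lay before it and at most 170 nt after it, so no listed peak lay in the first 738 nt of the gene. Log2 fold was lowest in the first piece (5.43, 11031 to 11104), and the other 6 pieces stood between 6.51 and 7.06. The 5′ edge of the block was thus its weakest part, and the rest of it was level.

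On mt-Nd5, the antiporter-like subunit at the tip of the membrane arm, the peaks fell into 2 groups near the 2 ends of the gene. The 5′ group held 11 peaks within 381 nt, at 11858 to 12238, and began at most 170 nt into the gene. The 3′ group held 4 touching peaks in 164 nt, at 13305 to 13468, and ended between 43 and 213 nt before the end of the 1824 nt gene. The 1066 nt between the groups held no listed peak. The span from first to last listed base was 88.3% of the gene, and the peaks covered 28.8% of it (526 nt). Log2 folds were 5.80 to 7.12 in the 5′ group, with the highest in the first piece at 11858 to 11894 and the lowest in the last piece at 12194 to 12238. In the 3′ group the log2 folds were 4.54, 4.65, 4.56 and 4.77, so the groups did not overlap in fold. The 5′ group had a median log2 fold of 6.50 and the 3′ group one of 4.61.

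**Figure D2:**
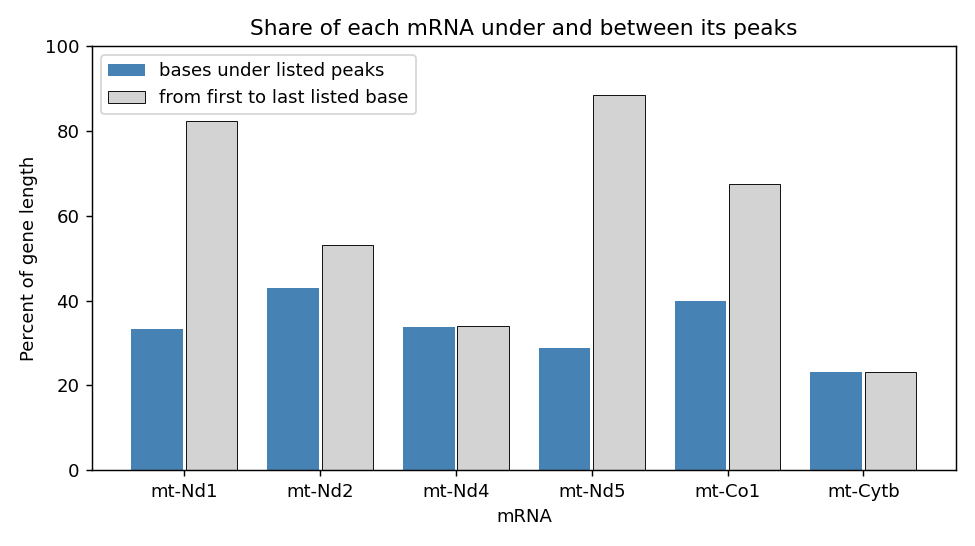
For each mRNA, the dark bar is the percent of the gene's length that lies under listed peaks and the pale bar the percent between its first and last listed base; both start at 0. On mt-Nd4 the bars are nearly equal (33.8% and 34.1%), on mt-Nd5 they are far apart (28.8% and 88.3%), and mt-Co1 and mt-Cytb are shown beside them.

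Covered length per gene varied less than the layout did. It was 33.3% on mt-Nd1, 43.1% on mt-Nd2, 33.8% on mt-Nd4 and 28.8% on mt-Nd5. Per 1000 nt of gene there were 7.31, 8.67, 5.08 and 8.22 peaks in the same order. On mt-Nd4 the fewest peaks per length went with the widest ones, a median of 74 nt. The median width was 48 nt on mt-Nd1, 43 nt on mt-Nd2 and 34 nt on mt-Nd5.

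Strength as the authors scored it followed no common order. The median log2 fold was 6.84 on mt-Nd1, 8.66 on mt-Nd2, 6.68 on mt-Nd4 and 6.37 on mt-Nd5. All 9 mt-Nd2 peaks were above every mt-Nd4 and mt-Nd5 peak, while the ranges of mt-Nd1, mt-Nd4 and mt-Nd5 overlapped. The -log10 p did not follow the fold. Of the 38 peaks 19 stood at the column's ceiling of 400, 6 on mt-Nd4 and 13 on mt-Nd5, against 0.815% of all listed peaks. None of the 16 peaks on mt-Nd1 and mt-Nd2 was at the ceiling: mt-Nd1 had -log10 p values of 56.1 to 117.1 and mt-Nd2 of 103.6 to 270.1. The 4 peaks of the mt-Nd5 3′ group, lowest of all 38 in fold, were all at the ceiling. At the ceiling no order among peaks can be read. The 3 exceptions on mt-Nd4 and mt-Nd5 each lay at an edge of a block. The last mt-Nd4 piece and the first and last pieces of the mt-Nd5 3′ group, also at edges, were at the ceiling. The exceptions were the first mt-Nd4 piece (61.7) and the first and last pieces of the mt-Nd5 5′ group (148.7 and 87.1).

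**Figure D3:**
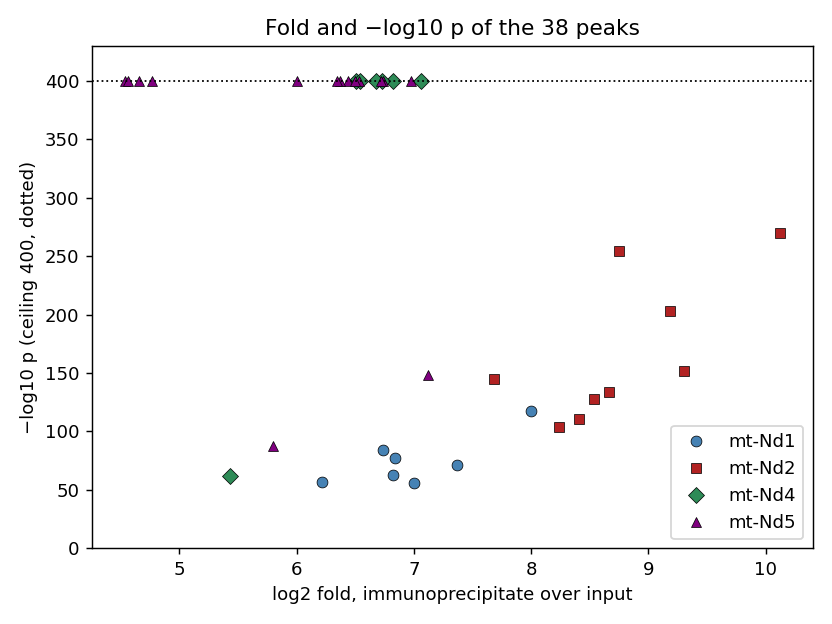
The authors' log2 fold of immunoprecipitate over input (x axis) and -log10 p (y axis, ceiling 400 dotted) of each of the 38 peaks, with a symbol per mRNA. The mt-Nd2 peaks have the highest folds and stay at or below 270.1, while 19 peaks of mt-Nd4 and mt-Nd5 lie on the ceiling at log2 folds of 4.54 to 7.06.

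Limits on the depth behind these folds were sought in the folds themselves. How the authors computed the fold is not stated in the labels or the file. Nearly all folds of the list (99.7%) can be written as a constant plus the mean of 2 log2 ratios of whole reads, within the rounding of the file. This formula was inferred from the values alone, and every read limit below depends on it. Under it, each fold gives the smallest whole-read products that fit it, and the true reads can be those or a multiple of them, so the values are lower limits. Of the 38 folds 37 fitted such products of up to 200 input reads. Of all 38 peaks 10 (26.3%) fitted 1 input read in each library, 2 on mt-Nd1, 6 on mt-Nd2, 1 on mt-Nd4 and 1 on mt-Nd5. The share was 30.4% for the mt-Co1 and mt-Cytb peaks and 81.2% for nuclear exon peaks. The constant was chosen so that as many folds below the list's median as possible fitted 1 input read in each library. These shares depend on that choice.

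On mt-Nd2, the product of the 2 libraries' input reads was 1 to 3 in its smallest form, and the geometric mean of immunoprecipitate reads was at least 117.9 to 640 per library. The highest of these belonged to the piece at 4682 to 4789, whose fold can rest on 1 input read in each library. On mt-Nd1 the smallest input product was 1 to 9, with at least 74 to 197.4 immunoprecipitate reads. On mt-Nd4 the smallest input product was 1 to 56. On mt-Nd5 it was 1 to 140 over the 14 of 15 peaks that could be fitted, highest in the 3′ group. The unfitted peak, at 13305 to 13336, is also in the 3′ group and fitted no product of up to 200. On none of the 4 mRNAs does a small product show that the reads were few. The last mt-Nd5 piece (13382 to 13468) is at the p ceiling, while its smallest products would be 27.1 immunoprecipitate and 1.73 input reads per library. Reads that cross the border of touching pieces may have been counted in both.

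Of the 13 protein-coding mitochondrial genes 6 had listed peaks, and of the 7 for complex I subunits 4 had. A share of 7.36% of all protein-coding genes in RefSeq had a listed peak, whether or not these cells transcribe them. The 4 complex I genes were chosen by having listed peaks, so no test against that share was made. The 3 complex I genes without a listed peak were mt-Nd3, mt-Nd4l and mt-Nd6. mt-Nd3 and mt-Nd4l are short, at 348 and 297 nt, and mt-Nd4l shares a transcript with mt-Nd4. mt-Nd6 (519 nt) is encoded on the opposite strand, where the list holds 0 mitochondrial peaks. The longer mt-Co2 (684 nt), mt-Co3 (784 nt) and mt-Atp6 (681 nt) and the shorter mt-Atp8 (204 nt) had none either. The 2 mitochondrial rRNAs, mt-Rnr1 (955 nt) and mt-Rnr2 (1582 nt), also had none. A part of gene length in this was not tested. A gene without a listed peak is not shown to be unbound, since the list starts at a log2 fold of 3.00.

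The other mitochondrial mRNAs in the list were mt-Co1, for the catalytic subunit of cytochrome c oxidase, with 16 peaks, and mt-Cytb, for cytochrome b of complex III, with 7. The 38 complex I peaks had a median log2 fold of 6.74 and the 23 mt-Co1 and mt-Cytb peaks one of 7.18. The mt-Co1 and mt-Cytb folds, 6.44 to 8.52, lay within the range of the complex I peaks, 4.54 to 10.12. None of the 23 reached the p ceiling, and their highest -log10 p was 208.4. Among mitochondrial mRNAs the ceiling was thus reached on mt-Nd4 and mt-Nd5. The 15 nuclear peaks at the ceiling lay on 6 genes, Actb, Bin2, Cat, Eif4g2, Kpna4 and Pim1.

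**Figure D4:**
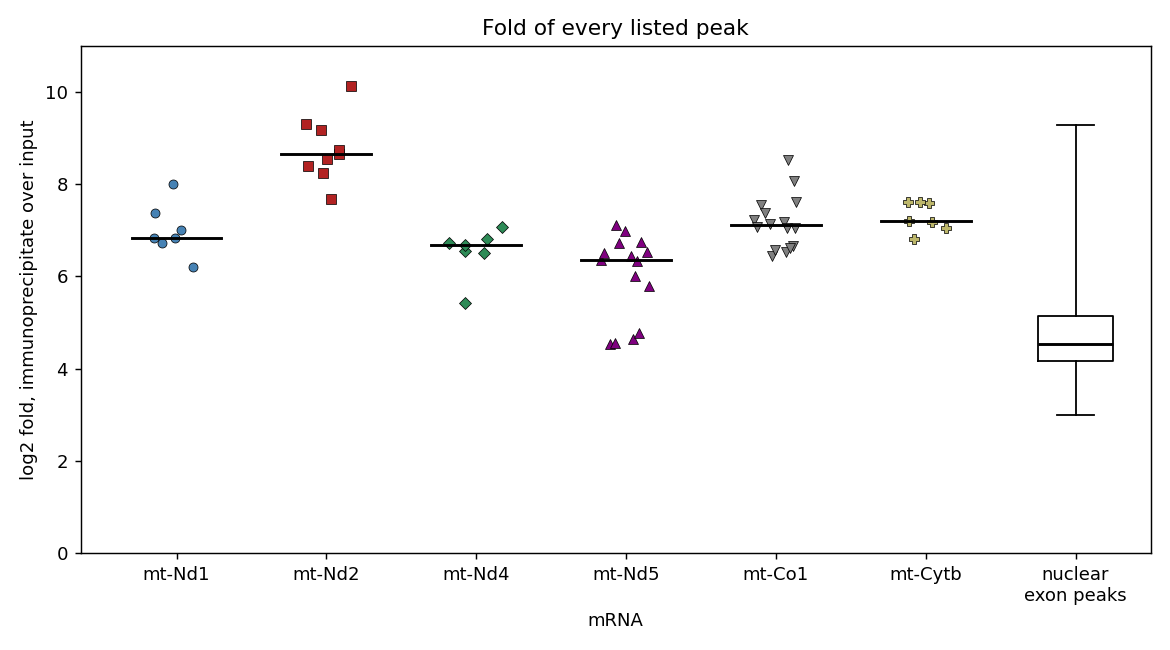
Points are the authors' log2 fold of immunoprecipitate over input for each listed peak, by mRNA, with a line at the median. The box shows the 1471 nuclear exon peaks (median, quartiles, whiskers at the lowest and highest value): their median is 4.53, below every mitochondrial peak.

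The complex I peaks were also set beside the nuclear exon peaks. The medians were 6.74 for the 38 peaks and 4.53 for 1471 nuclear exon peaks, a difference of 2.21 on the log2 scale. The middle 50% of complex I peaks lay between 6.39 and 7.60, and that of nuclear exon peaks between 4.18 and 5.14. Of the nuclear exon peaks 4.21% exceeded the complex I median. Against the 24 nuclear genes with at least 7 exon peaks the difference was 1.83. Of the 38 complex I peaks 36 were above the list's median log2 fold of 4.60 (49.2% of all listed peaks were), and both others belonged to the mt-Nd5 3′ group. Since the members were chosen with these values known, no test was made.

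Ranked over all 1629 gene identifiers, mt-Nd2 stood at rank 4 by its strongest peak, mt-Nd1 at 24, mt-Nd5 at 71 and mt-Nd4 at 74. By number of peaks mt-Nd5 was at rank 12 and mt-Nd2 at 42, with mt-Nd1 and mt-Nd4 tied at 76. By covered bases the order was mt-Nd5 at 87, mt-Nd4 at 123, mt-Nd2 at 146 and mt-Nd1 at 313. The members thus stood higher in the list by fold (mt-Nd2, mt-Nd1, mt-Nd5 and mt-Nd4) than by the length they had under peaks.

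The nuclear genes most like the 4 mRNAs were found by distance in 3 scaled measures: number of exon peaks, their median log2 fold and the bases they cover. Among 305 nuclear genes with at least 2 exon peaks, the closest to the members' mean was Frrs1, a ferric reductase gene, at a distance of 0.73 SD. It had 8 exon peaks with a median log2 fold of 7.35 over 301 nt. Next were Sos1, which activates Ras, at 0.86 (7 peaks, 6.58, 445 nt), and Zc3h7a, a zinc finger gene, at 1.27 (5 peaks, 7.35, 477 nt). Mtdh followed at 1.34 (13 peaks, 6.85, 786 nt) and the splicing regulator Mbnl2 at 1.61 (6 peaks, 8.25, 502 nt). The members themselves lay 0.78 (mt-Nd4), 0.83 (mt-Nd1), 1.45 (mt-Nd5) and 1.84 (mt-Nd2) from their own mean. The nuclear genes named here were picked as the nearest of the 305, so their nearness to the mean holds by construction.

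The list was also searched for the nuclear partners of these mRNAs. Of 37 nuclear-encoded complex I subunits 1 had a peak (2.70%, exact 95% interval 0.068 to 14.2), while 7.36% of all protein-coding genes of the RefSeq table did, a share within that interval. It was Ndufc2, an accessory subunit of the membrane arm, with a peak of log2 fold 4.19 in an exon at chromosome 7, 97056093 to 97056179. This fold lies below each of the 38 mitochondrial complex I peaks. Of 15 complex I assembly factors 0 had a peak (exact 95% interval 0 to 21.8%, for counting error only). Of 30 factors that make, cut, stabilise or translate mitochondrial RNA, 1 had a peak (exact 95% interval 0.084 to 17.2%). Both intervals hold the share of all protein-coding genes too. This was Lrpprc, which binds and stabilises mitochondrial mRNAs, with a log2 fold of 6.08 in its 3′ UTR at chromosome 17, 85012688 to 85012823. Among 14 genes typical of myeloid progenitors and interleukin-3-dependent cells 5 had peaks (35.7%, exact 95% interval 12.8 to 64.9%). That interval lies above the 7.36% of all protein-coding genes. The 5 were Ptprc, Csf2rb, Prtn3, Srgn and Gata2. The other 9, Kit, Mpo and Cd34 among them, had none, and a peak list does not measure whether a gene is transcribed. The share of 7.36% likewise counts all protein-coding genes, whether or not these cells transcribe them, which limits each comparison with it.

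Nuclear DNA holds copies of mitochondrial sequence, and how reads with several matches were treated is not stated in the labels or the file. Their part in these peaks was not tested. Mitochondrial RNA content of the libraries was not used here.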

How the data were processed

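The deposited file is 1 peak list over 2 NAT10 immunoprecipitates and 2 inputs. Per the file headers it has a fold and a p per peak. The authors computed the fold of immunoprecipitate over input before they deposited it, and its values were read as log2. The authors also computed the p of each peak, deposited as values of 3.07 to 400 that were read as -log10 p. Reads were placed on GRCm39, going by the submitters' processing notes; the aligner, caller and cut-offs are not stated in labels or file. Library totals, and so depth per library, are unknown apart from the inferred read limits given above.

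Peaks of each mRNA were joined and counted in Python 3.11.15 with pandas 2.3.3. Gene lengths, neighbours and types came from the RefSeq table of GRCm38.p6, with no coordinate used; 1615 of 1626 symbols matched, and ND1, ND2, ND4 and ND5 there were taken as the 4 members. Whole-read products were sought within 0.0001 of a whole number. The search was checked on data simulated under the same formula, so that check does not bear on whether the formula holds. No sequence of these mRNAs was used. The members and lists were chosen with earlier results of these data known. Named genes are the members, listed genes with a peak, other genes at the p ceiling and the 5 nearest nuclear genes; the ceiling genes and the listed genes without a peak were named after their values were seen.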

Additional observations from a re-analysis of the deposited data

How the results depend on the processing

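No paired analysis was possible because the list holds no value per library, and for the same reason no replicate could be left out. The count of 38 peaks became 14 with touching peaks joined and 9 with peaks at most 50 nt apart joined, by construction. The 1758 nt covered became 836 nt with peaks at the p ceiling alone, all on mt-Nd4 and mt-Nd5. The median log2 fold of 6.74 was 6.82 with each base counted once, 7.56 over the strongest peak and 6.76 over the median peak of each mRNA. The difference of 2.21 from nuclear exon peaks was 3.01 by each gene's strongest peak and 2.32 by each gene's median peak. It was 2.15 against all nuclear peaks and 1.83 against nuclear genes with as many exon peaks. The members were chosen with these folds known, so the sign it kept in all 4 is no test. A strongest peak was also taken from more peaks on the members than on most nuclear genes. The centre of the covered bases, counted from the first listed base, lay at 628 nt on mt-Nd1, 326 on mt-Nd2, 232.5 on mt-Nd4 and 262.5 on mt-Nd5. By the median of peak centres it lay at 546.5, 174, 273 and 247 nt in the same order, and with peaks above the list's median fold it moved to 239 nt on mt-Nd5. With those stronger peaks alone 0 of the nuclear-encoded complex I genes had a peak, since Ndufc2 lies below that median. Folds carry no error per peak, and lower limits on reads are no read counts.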
